A study of Mus musculus with 6 samples.

Results

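The Rab genes encode small GTPases that mark and steer the membrane compartments of a cell. They were measured here as RNA in abdominal fat of mice on a high-fat diet after an intestinal bypass or a sham operation. Members were all genes whose symbol on the array is Rab followed by a number, with or without a letter, which gave 57 genes carried by 99 probes, against 18303 named genes tested in all. For each Rab gene the probe with the highest mean signal among those named by symbol was used. All mice, in both groups, were C57BL/6, began a high-fat diet at the age of 6 weeks and had eaten it for 12 weeks when they were randomised to surgery. DJB mice had a duodenal-jejunal bypass with a biliopancreatic limb of 5 cm and a Roux limb of 4 cm. Sham mice had the same incision and the same cuts through the intestine, which were sewn back in place. Each group held 3 one-colour arrays, called Sham-1 to Sham-3 and DJB-1 to DJB-3. The labels do not give the fat depot, the sex or the time since surgery, nor whether each array is a separate animal, so p-values measure the spread between these arrays.

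A Rab protein cycles between an inactive form bound to GDP in the cytosol and an active form bound to GTP on a membrane. Exchange factors switch it on, GTPase-activating proteins switch it off, and effectors bound to the active form tether, move or fuse vesicles. In fat cells this machinery carries the insulin-responsive glucose transporter to the cell surface, with Rab10 acting downstream of the GTPase-activating protein Tbc1d4, and Rab18 coats lipid droplets.

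All values are log2 signals relative to the 75th percentile of the same array, and differences on that scale are taken as DJB minus Sham. A gene was called when the adjusted p of limma's moderated test was under 0.05, after Benjamini-Hochberg adjustment across the 99431 probes tested. Of the 57 Rab genes, 55 were well above background on all 6 arrays and were tested. Rab39b was well above background on 1 Sham array and on no DJB array, and Rab3c, a relative of the synaptic vesicle protein Rab3a, on no array. With 3 arrays against 3, an exact permutation test of a single gene cannot give a two-sided p below 0.1. The arrays lay on 2 slides, with Sham-2 and DJB-3 on slide 2 and the other 4 on slide 1. The 75th percentile of the processed intensity was 176 to 184 on the Sham arrays and 132 to 165 on the DJB arrays. The tissue label was checked against its defining markers: all 7 adipocyte genes examined were measured, and their summed level was 2580 to 2926 times the 75th percentile in Sham and 1229 to 2288 times in DJB.

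The genes with a call were Rab21, which was higher in DJB, and Rab9b, Rab36, Rab30 and Rab38, which were lower. The first 30 bases of their probes, each 60 bases long, are shown as the array files list them, because some of these results were read by several separate stretches of the transcript and others by 1. The 1st probe of each gene is the one used. Probes marked "accession" carry a transcript accession in place of a symbol and were outside the selection. Rab39b is shown because its accession probe was read where its symbol probe was not. Capitals mark a run of 20 or more bases shared with another probe of the same gene. By the GRCm38.p6 gene table Rab21 and Rab36 lie on chromosome 10, Rab30 and Rab38 on chromosome 7, and Rab9b and Rab39b on the X chromosome.
Rab21 probe 1: gaacaaaggcattgaggagctctttctcga
Rab21 probe 2: aggtgaattaaccgttggtgataacaccta
Rab21 probe 3 (accession): cccagtgatccaaaagcagcgtttgccttt
Rab30 probe 1: ctttttggtgctaatgattatgctatttca
Rab30 probe 2 (accession): ggagaggccaaggtttaggattttgtagac
Rab36 probe 1: gtcttttattctaaaaagtatataaaacat
Rab36 probe 2: atcggcgtggactttgaaatcgagcgcttt
Rab38 probe 1: gtcaggatagggaagcacatgtgacaagcc
Rab38 probe 2 (accession): cattaaaaatgctgtttccctgtttctgat
Rab9b probe 1: ctgaggtattccaccatcctCTTGTTGCAG
Rab9b probe 2: cttataatagtttctatctgtagatctcag
Rab9b probe 3 (accession): CTTGTTGCAGGTGCTGCTAAAAATCTCAAA
Rab39b probe 1: atggcaaattatatttgcaatatcctgttc
Rab39b probe 2 (accession): gctgttgtcactgcaataagtgggttttag

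Over the whole family, 1 of 55 genes was called higher (1.82%) and 4 were called lower (7.27%). Among all 18303 genes 1.40% were called higher and 6.09% lower (7.49% either way), so the shares of called Rab genes lay close to the background. Without adjustment, 30 Rab genes had p under 0.05. Of these 18 were higher (32.7%, against 13.4% of all genes) and 12 lower (21.8%, against 20.1%). No Rab gene was called without Sham-1, where limma gave 12 higher and 12 lower at unadjusted p under 0.05 (21.8% each, against 7.05% and 14.9% of all genes), or without DJB-2, where it gave 16 and 13 (29.1% and 23.6%, against 9.56% and 17.2%). In 24 of 55 Rab genes (43.6%) all 3 DJB arrays lay above all 3 Sham arrays, against 19.8% of all genes. In 11 (20%) they lay wholly below, against 22.2% of all genes. The shares of all genes took the brightest probe under a symbol or an accession, while Rab genes were limited to probes under a symbol. With accession probes included, 28.6% of Rab genes were higher and 21.4% lower at unadjusted p under 0.05. The brighter accession probes of Rab5b, Rab6a, Rab9, Rab12, Rab22a and Rab29 overlapped between groups, so fewer Rab genes lie wholly above by that rule. Those of Rab26 and Rab39b lay wholly below, and that of Rab3b overlapped. The median difference over the tested Rab genes was 0.14, against 0.0042 over all genes, and 34 of 55 were positive (61.8%, against 50.4%). The counts above and below were 20 and 10 after normexp background correction (36.4% and 18.2%, against 20.5% and 21.8% of all genes). They were 22 and 11 after quantile normalization (40% and 20%, against 18.1% and 24.1%) and in the authors' values (against 17.8% and 24.3%). After scaling to each array's median they were 25 and 9 (45.5% and 16.4%), but the shares of all genes then were 28.4% and 16.5%, and the median of all genes moved from 0.0042 to 0.11.

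**Figure D1:**
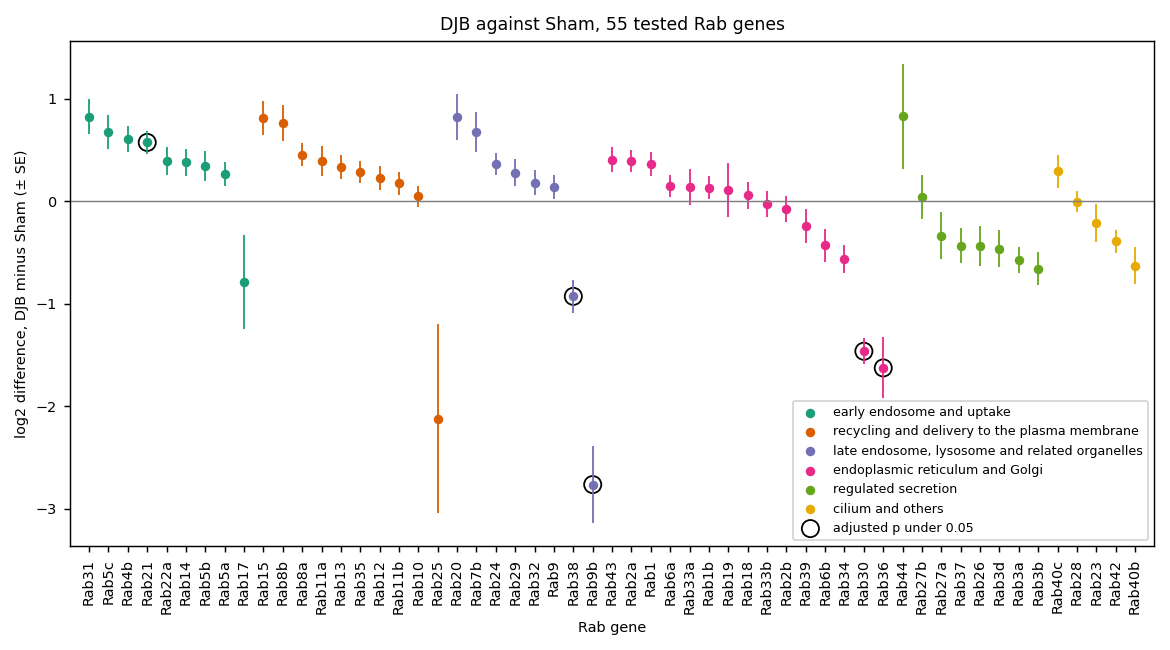
Log2 difference (DJB minus Sham, y axis) with its standard error for each of the 55 tested Rab genes, grouped and coloured by the compartment the protein acts in; rings mark adjusted p under 0.05. Of the 9 genes of the early endosome 8 are positive, while 6 of the 8 genes of regulated secretion are negative.

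The members are described by the compartment in which the proteins act. The early endosome sorts cargo just after uptake, and its 9 Rab genes had a median difference of 0.40. On the probes used 8 of them were higher on every DJB array than on every Sham array, against 19.8% of all genes. This count, on the same probes, was 8 of 9 under each of the other 3 scalings and background corrections and in the authors' values. The brighter accession probes of Rab5b and Rab22a overlapped between groups, at 0.12 and 0.29, so the count depends on the probe chosen. Rab21, which directs uptake of integrins, read 2.41, 2.51 and 2.53 in Sham and 3.18, 2.96 and 3.03 in DJB. The DJB values were all higher, by 0.58 ± 0.11 (SE, n = 3 per group), which is 1.49-fold (limma, adjusted p = 0.0463). Its other probes differed by 0.33 (adjusted p = 0.157) and 0.44 (adjusted p = 0.0763), both higher on every DJB array but not called. The Rab21 call was lost when any 1 of the 6 arrays was left out, with limma adjusted p from 0.0670 to 0.162 and differences from 0.51 to 0.62.

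Rab31, which moves cargo between the Golgi and endosomes, read 3.52, 4.00 and 4.03 in Sham and 4.79, 4.56 and 4.67 in DJB. The groups did not overlap, and the difference of 0.83 ± 0.17 (SE) lay just outside the threshold (limma, adjusted p = 0.0502). Its other probes gave 0.76 and 0.62. Rab4b, of the fast recycling route, read 2.32, 2.42 and 2.43 in Sham and 2.99, 2.82 and 3.18 in DJB, a difference of 0.61 ± 0.13 (SE; limma, adjusted p = 0.0524). Its paralog Rab4a, present under an accession only and so outside the family count, read 3.52, 3.46 and 3.07 against 4.17, 2.80 and 3.15, which overlap. The Rab4a difference was 0.02 ± 0.36 (SE; limma, adjusted p = 0.975), and its sign turned with the scaling.

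The Rab5 proteins drive fusion of incoming vesicles, and the probes used for all 3 genes lay higher on every DJB array. Other probes of Rab5a and Rab5b were positive but overlapped between groups. The Rab5a accession probe differed by 0.15, and the other 2 Rab5b probes by 0.25 and, on the brighter accession probe, 0.12. Rab5c read 2.71, 2.86 and 3.01 in Sham and 3.82, 3.49 and 3.30 in DJB, a difference of 0.68 ± 0.17 (SE; limma, adjusted p = 0.0706). Rab5a differed by 0.27 (adjusted p = 0.193) and Rab5b by 0.35 (adjusted p = 0.184), neither of which passed the test. Rab14, which links endosomes and the Golgi, differed by 0.38 (adjusted p = 0.126) and Rab22a, another early endosome Rab, by 0.40 (adjusted p = 0.130). The exception was Rab17, a Rab of epithelial cells, at -0.78 ± 0.46 (SE), with overlapping groups.

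**Figure D2:**
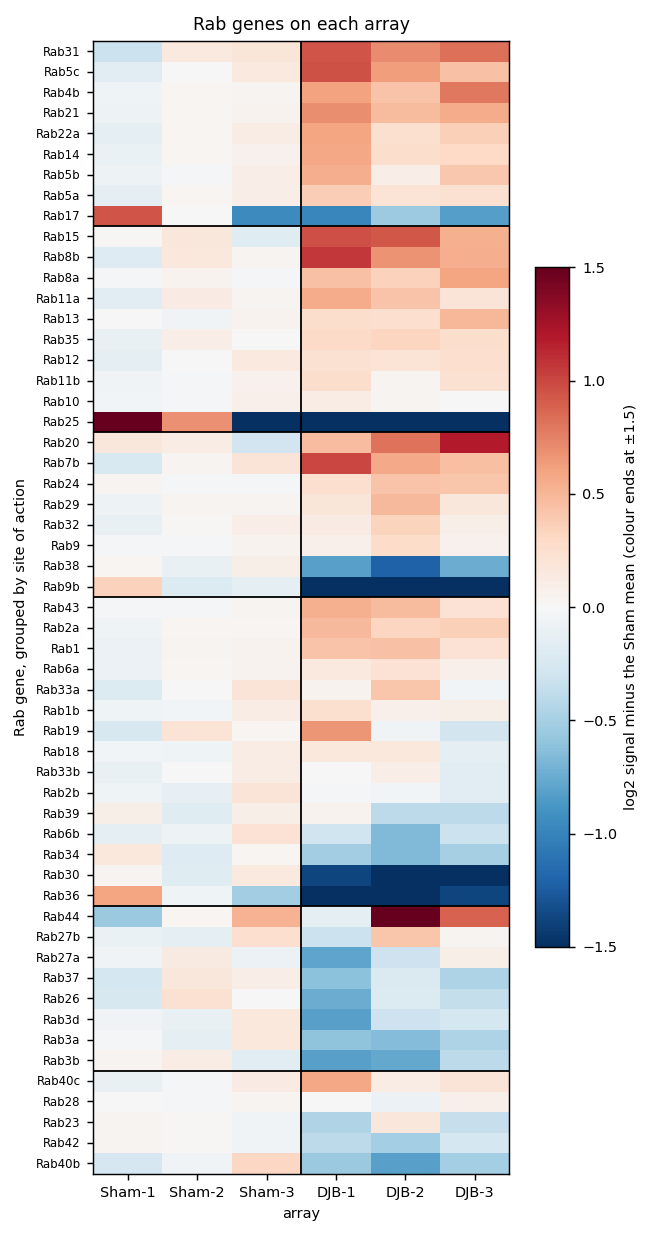
Log2 signal minus the Sham mean for each tested Rab gene (rows, grouped by compartment from the early endosome at the top to the cilium and others at the bottom) on each of the 6 arrays (columns). Red is above and blue below the Sham mean, and the colour ends at ±1.5. The early endosome rows are red on all 3 DJB arrays except for Rab17, and Rab25 and Rab17 are also low on Sham-3.

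The recycling and plasma membrane Rabs carry vesicles outward, with a median difference of 0.31. Of the 10, 7 lay higher on every DJB array (against 19.8% of all genes) and none lower (against 22.2%). After normexp correction 5 lay higher (against 20.5%). The brighter accession probe of Rab12 overlapped between groups. None was called by limma, and 6 were higher at unadjusted p under 0.05 (60%, against 13.4% of all genes). Rab15, of endosome recycling, read 3.93, 4.08 and 3.74 in Sham and 4.89, 4.85 and 4.45 in DJB. The groups were well apart, and the difference of 0.81 ± 0.17 (SE) lay just outside the threshold (limma, adjusted p = 0.0502). Rab8b, which with Rab8a delivers vesicles to the cell surface, read 2.09, 2.44 and 2.33 against 3.35, 2.96 and 2.84, a difference of 0.76 ± 0.18 (SE; limma, adjusted p = 0.0610). Rab8a read 2.03, 2.11 and 2.03 against 2.49, 2.40 and 2.65, also without overlap, a difference of 0.46 ± 0.11 (SE; limma, adjusted p = 0.0691).

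The probes of Rab10 differed among themselves. Rab10, the Rab of insulin-stimulated glucose transporter delivery in fat cells, read 4.79, 4.80 and 4.91 in Sham and 4.94, 4.87 and 4.84 in DJB. The groups overlapped and the difference was 0.05 ± 0.10 (SE; limma, adjusted p = 0.783). Its accession probe gave 0.01, while a pair of dimmer Rab10 probes gave 0.47 (adjusted p = 0.0555) and 0.40 (adjusted p = 0.0885), each higher on every DJB array. The dimmer probes share a run of 40 bases, so their readings do not come from separate sequence. The accession probe and the probe used share 31 bases. Rab13, which serves glucose transporter delivery in muscle cells, differed by 0.34 (adjusted p = 0.130) and its accession probe by -0.14. Rab11a, of the recycling endosome, differed by 0.39 (adjusted p = 0.146), and its paralog Rab11b by 0.18 (adjusted p = 0.347). Rab35 and Rab12, of the fast recycling and receptor degradation routes, differed by 0.29 and 0.23 and were not called.

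Rab25, a relative of Rab11a found mainly in epithelia, went the other way. It read 0.24, -0.60 and -3.50 in Sham and -3.74, -3.42 and -3.07 in DJB. Sham-3 lay within the DJB range, so the groups overlapped, and the difference of -2.12 ± 0.92 (SE) was not called (limma, adjusted p = 0.194). The 6 epithelial markers were all lower in the DJB mean, with a median difference of -2.47. None was called by limma, and 2 were lower at unadjusted p under 0.05. Their summed level was 130 on Sham-1, 87.0 on Sham-2 and 13.7 on Sham-3, and 4.62, 6.45 and 19.8 on the DJB arrays, in multiples of the 75th percentile. Sham-3 was thus the lowest Sham array for Rab25, for Rab17 and for the epithelial sum. The part of epithelial RNA in these readings was not tested. In whole tissue, fewer cells of a type and less RNA per cell cannot be told apart.

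**Figure D3:**
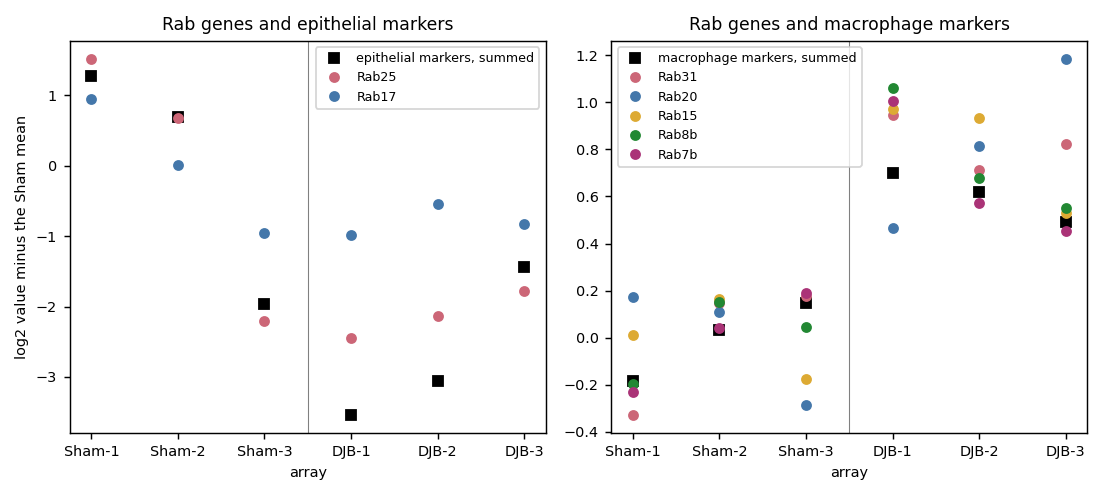
Log2 value minus the Sham mean on each array for Rab25 and Rab17 with the summed epithelial markers (left), and for the 5 Rab genes with the largest positive differences among those without overlap, with the summed macrophage markers (right). On the left the Sham-3 points lie with the DJB arrays. On the right the Rab genes were chosen for lying higher on every DJB array, so their separation follows from that choice. The macrophage sum also lies higher on every DJB array.

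Late endosome and lysosome Rabs divided. Of 8 genes 5 lay higher on every DJB array, against 19.8% of all genes. The other 2 without overlap, Rab9b and Rab38, lay lower (against 22.2% of all genes) and were called lower (against 6.09%). The count lying higher was 4 after normexp correction, after quantile normalization and in the authors' values (against 20.5%, 18.1% and 17.8%). After median scaling it was 6 (against 28.4%). The brighter accession probes of Rab9 and Rab29 overlapped between groups, so the count also depends on the probe chosen. Rab9b, a close relative of Rab9, which returns receptors from late endosomes to the Golgi, read 0.76, 0.21 and 0.27 in Sham and -3.19, -1.96 and -1.89 in DJB. Every DJB array was far below every Sham array. It fell by 2.76 ± 0.38 (SE, n = 3 per group) on the log2 scale, which is 6.78-fold (limma, adjusted p = 0.0282). Rab9b probe 2, which shares no run of more than 6 bases with probe 1, was, on each DJB array, not well above background and was at least 3.67-fold lower. The measured difference of probe 2, -3.02 ± 0.48 (SE; limma, adjusted p = 0.0339), uses those DJB values. Probe 3, which shares 40 bases with probe 1, was not well above background on DJB-1, so its difference of -3.94 ± 0.95 (SE; limma, adjusted p = 0.0668) uses 1 value that was not well above background. The paralog Rab9 read 4.59, 4.59 and 4.67 against 4.70, 4.90 and 4.68, a difference of 0.14 (adjusted p = 0.453). The Rab9b call was lost without Sham-1, Sham-2 or DJB-2 (limma, adjusted p = 0.116, 0.0876 and 0.0839), where the differences were -2.59, -2.86 and -2.96.

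Rab38 directs cargo to melanosomes and related organelles. It read -0.54, -0.68 and -0.48 in Sham and -1.38, -1.79 and -1.31 in DJB, and fell by 0.93 ± 0.16 (SE, n = 3 per group), or 1.90-fold (limma, adjusted p = 0.0382). Its accession probe, which shares no run of more than 5 bases with the first, went against it at 0.17 ± 0.15 (SE; limma, adjusted p = 0.516). The Rab38 result thus rests on 1 probe, and the call held in 1 of the 6 fits that leave out an array, the one without DJB-3 (adjusted p = 0.0450), with adjusted p up to 0.143 in the others. Its close relative Rab32 differed by 0.18 (adjusted p = 0.374).

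Rab20, known from the maturation of phagosomes in macrophages, read 0.46, 0.40 and 0.00 in Sham and 0.75, 1.10 and 1.47 in DJB, a difference of 0.82 ± 0.22 (SE; limma, adjusted p = 0.0818). Rab7b, which returns cargo from endosomes to the Golgi, read 7.61, 7.88 and 8.03 against 8.84, 8.41 and 8.29, a difference of 0.68 ± 0.19 (SE; limma, adjusted p = 0.0887). Rab7, the main Rab of late endosomes, was present under an accession only, and its probe read 5.43, 5.65 and 5.81 against 6.30, 6.07 and 6.12. The Rab7 groups did not overlap and differed by 0.54 ± 0.14 (SE; limma, adjusted p = 0.0778). Rab24, linked to autophagy, differed by 0.37 (adjusted p = 0.0930), but both of its other probes were negative, at -0.11 and -0.18. Rab29, a partner of the kinase Lrrk2, differed by 0.28 (adjusted p = 0.224).

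Macrophage markers were also higher in DJB. All 10 macrophage genes examined were higher in the DJB mean, with a median difference of 0.60, and 2 of them, Gpnmb and Itgam, were called higher. The summed macrophage level was 1777 to 2234 times the 75th percentile in Sham and 2836 to 3274 times in DJB, without overlap. Of 7 adipocyte markers 6 lay lower on every DJB array, and Lep and Pparg were called lower. Sums of other marker lists were also lower on every DJB array. These were the smooth muscle (273 to 415 against 87.8 to 122) and mesothelial sums (87.6 to 98.9 against 21.4 to 53.5). So were the skeletal muscle (33.6 to 92.4 against 9.97 to 13.8) and endothelial sums (131 to 150 against 74.1 to 108). The liver sum lay lower too (2.55 to 5.11 against 1.24 to 1.41). Of these lists 3 of 5, 1 of 5, 1 of 5, 1 of 5 and 2 of 5 tested genes were called lower. The skeletal muscle sum followed Acta1 (-4.77), while the other 4 tested genes of that list were positive, at 0.07 to 0.31, and Apoa1 (1.62) and Ttr (0.44) of the liver list were also positive, none of them called. Myh4 of skeletal muscle was, on each of the 6 arrays, not well above background. The neutrophil sum was higher (53.6 to 57.4 against 58.2 to 108), and the T cell, B cell, fibroblast and nerve sums overlapped. The part of cell composition in the Rab differences was not tested.

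**Figure D4:**
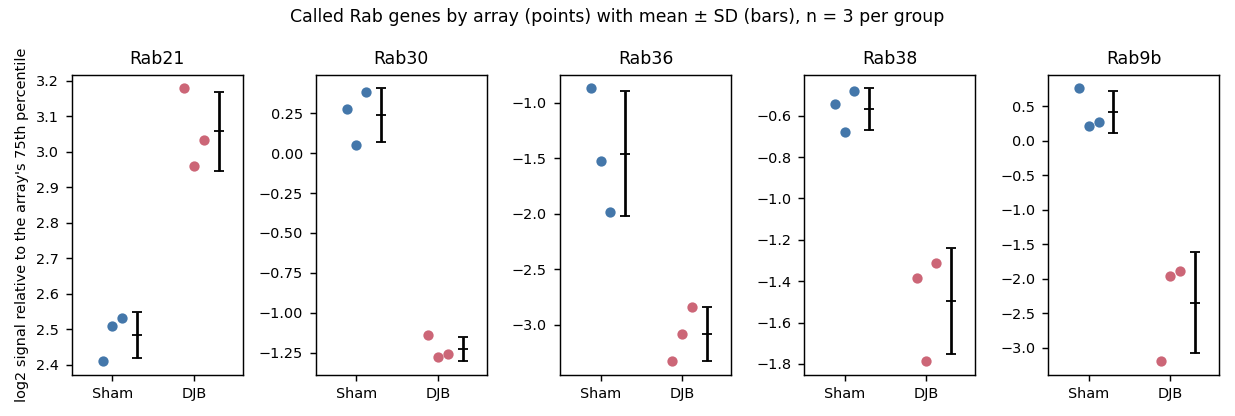
Log2 signal relative to the array's 75th percentile for the 5 called Rab genes on each Sham (blue) and DJB (red) array, with the mean ± SD of each group of 3 as bars. Each panel has its own y axis, and in every panel the DJB points lie wholly on one side of the Sham points.

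Rabs of the endoplasmic reticulum and Golgi showed no common direction. Of 15 tested genes 4 lay wholly above and 4 wholly below (against 19.8% and 22.2% of all genes), with a median of 0.06. The 2 called genes were lower, where 6.09% of all genes were called lower. Rab30, a Golgi Rab, read 0.28, 0.05 and 0.38 in Sham and -1.14, -1.28 and -1.26 in DJB. The groups were tight and far apart. It fell by 1.46 ± 0.13 (SE, n = 3 per group), or 2.75-fold (limma, adjusted p = 0.0121), the lowest adjusted p of the family. The Rab30 accession probe, which shares no run of more than 8 bases with the first, also fell, by 1.18 ± 0.18 (SE; limma, adjusted p = 0.0326). Rab30 was the only Rab gene called with the slide as a block (adjusted p = 0.0275). Its call was lost without Sham-1 (adjusted p = 0.0750) and without DJB-2 (adjusted p = 0.0594), with differences of -1.44 in both.

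Rab36, which with Rab34 positions lysosomes near the Golgi, read -0.87, -1.52 and -1.98 in Sham and -3.33, -3.08 and -2.84 in DJB. It fell by 1.62 ± 0.30 (SE, n = 3 per group), or 3.08-fold (limma, adjusted p = 0.0422). Rab36 probe 2 was, on each DJB array, not well above background and was at least 1.56-fold lower. The measured difference of probe 2, -0.82 ± 0.21 (SE; limma, adjusted p = 0.0752), uses those DJB values. The Rab36 call held in 1 of the 6 fits that leave out an array, the one without Sham-3 (adjusted p = 0.0327), with adjusted p from 0.0590 to 0.119 in the others. After normexp background correction its difference was -0.51 (adjusted p = 0.0726). Rab34 read 6.11, 5.77 and 5.98 against 5.44, 5.29 and 5.45, also lower on every DJB array, at -0.56 ± 0.13 (SE; limma, adjusted p = 0.0633).

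Rab1, of transport from the endoplasmic reticulum to the Golgi, differed by 0.36 (adjusted p = 0.112), and its paralog Rab1b by 0.13. Rab2a, which acts at the same step, differed by 0.39 (adjusted p = 0.0823) and Rab2b by -0.08. Rab43, another Golgi Rab, differed by 0.41 (adjusted p = 0.101). Rab6a and Rab6b, of transport back through the Golgi, differed by 0.15 (adjusted p = 0.410) and -0.43 (adjusted p = 0.150). Rab18, the lipid droplet Rab, read 4.90, 4.88 and 5.05 in Sham and 5.10, 5.10 and 4.81 in DJB. The Rab18 groups overlapped and the difference was 0.06 ± 0.13 (SE; limma, adjusted p = 0.797), with a sign that turned under quantile normalization. Rab19, Rab33a and Rab33b differed by 0.11, 0.14 and -0.03, and Rab39 by -0.24. The accession probe of Rab39b, the relative of Rab39 that could not be tested by its symbol probe, was lower at -1.59 ± 0.31 (SE; limma, adjusted p = 0.0471).

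The Rabs of regulated secretion release stored granules, and 6 of the 8 tested genes were negative, with a median of -0.43. Wholly below lay 3 (against 22.2% of all genes) and wholly above none (against 19.8%). None was called by limma, and 4 were lower at unadjusted p under 0.05 (50%, against 20.1% of all genes). The median was -0.08 after normexp correction. Rab3a, which controls vesicle release, read 3.01, 2.88 and 3.19 in Sham and 2.42, 2.37 and 2.56 in DJB. The groups did not overlap, and the difference was -0.57 ± 0.13 (SE; limma, adjusted p = 0.0572). Its accession probe fell by 0.65 ± 0.10 (SE; limma, adjusted p = 0.0346). Rab3b read -2.47, -2.40 and -2.68 against -3.33, -3.28 and -2.91, a difference of -0.66 ± 0.16 (SE; limma, adjusted p = 0.0663), but its accession probe gave 0.02.

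Rab3d, of granule release in fat and gland cells, read 4.24, 4.18 and 4.45 in Sham and 3.48, 3.98 and 4.02 in DJB, a difference of -0.46 ± 0.18 (SE; limma, adjusted p = 0.160). Rab27a, which docks secretory granules and exosomes, read -1.43, -1.24 and -1.47 against -2.16, -1.68 and -1.29, a difference of -0.34 (adjusted p = 0.379), and its paralog Rab27b differed by 0.04 (adjusted p = 0.914). Rab26 and Rab37, of granule maturation and release, differed by -0.44 and -0.43 and were not called. Besides Rab27b, the positive member was Rab44, known from mast cell granules, at 0.83 ± 0.51 (SE), with overlapping groups. Mast cell markers summed to 201 to 550 times the 75th percentile in Sham and 602 to 769 times in DJB, and none of the 5 was called by limma, with 3 higher at unadjusted p under 0.05.

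Among the remaining 5 members none was called by limma, and 2 were lower at unadjusted p under 0.05 (40%, against 20.1% of all genes). Rab40b, an adaptor of a ubiquitin ligase, differed by -0.63 (adjusted p = 0.0912) and its paralog Rab40c by 0.29 (adjusted p = 0.278). Rab42 differed by -0.39 (adjusted p = 0.0925), and its accession probe fell by 0.61 ± 0.10 (SE; limma, adjusted p = 0.0371). Rab23, an inhibitor of Hedgehog signalling, and Rab28, a cilium Rab, differed by -0.21 and -0.0031.

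Most of these genes were read by more than 1 probe. Of 90 further tested probes of the members, 77 had the sign of the probe used, and 43 of 52 genes had the same sign on all of theirs. In 50 genes an accession probe was tested, 43 with the same sign, and the median gap between the readings was 0.12 (largest 1.25, in Rab17). Most probe pairs of a gene were from different sequence: of 144 pairs 13 shared a run of 20 or more bases and the rest at most 8. Among the 13 were the probe used and the accession probe of Rab10, Rab11a, Rab15, Rab19, Rab1b, Rab29, Rab35, Rab6a, Rab6b and Rab9b. These pairs shared up to 57 bases (Rab35), so their readings do not come from separate sequence. On the arrays of slide 1 and of slide 2 taken apart, 49 of 55 genes had the same sign. Slide 2 held 1 array per group. In the 24 Rab genes wholly above and the 11 wholly below, an equal sign on both slides was fixed in advance. The 5 called genes were among these. The share over all genes was not counted. The differences on slide 1 and slide 2 were 0.60 and 0.53 for Rab21, -1.54 and -1.31 for Rab30, -3.09 and -2.10 for Rab9b, -1.78 and -1.32 for Rab36, and -1.07 and -0.63 for Rab38.

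**Figure D5:**
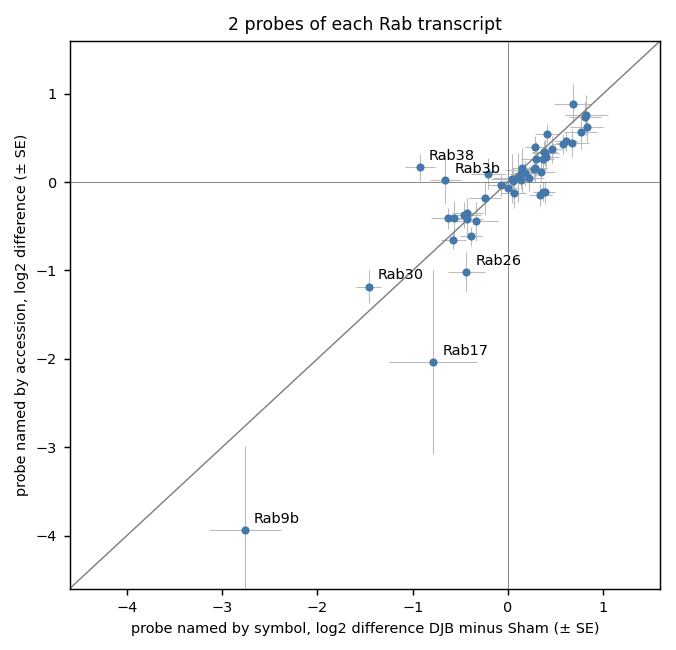
Log2 difference (DJB minus Sham) with its standard error from the probe used for each Rab gene (x axis) and from the probe named by accession (y axis), for 50 genes with both. The diagonal marks equal values. Rab30 and Rab9b are negative on both, while Rab38 and Rab3b are negative on the x axis and slightly positive on the y axis.

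The proteins that switch and read Rabs were also examined, as a list of 131 genes, all tested. None was called higher by limma and 6 were called lower (4.58%, against 6.09% of all genes), while 26 were higher (19.8%, against 13.4% of all genes) and 24 lower (18.3%, against 20.1%) at unadjusted p under 0.05. All 8 prenylation and recycling factors and all 38 exchange factors were without a call. Before adjustment 2 and 7 were higher (25% and 18.4%, against 13.4% of all genes) and 0 and 4 lower (0% and 10.5%, against 20.1%). Of the 39 GTPase-activating proteins, Grtp1 fell by 2.34 ± 0.39 (SE; limma, adjusted p = 0.0367) and Rabgap1l fell by 0.82 ± 0.15 (SE; limma, adjusted p = 0.0409). Grtp1 read 3.51, 2.57 and 2.77 in Sham and -0.01, 0.55 and 1.28 in DJB.

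Of the 46 effectors 4 were called lower (8.70%, against 6.09% of all genes) and 22 were negative. Called lower were Sytl2, Sytl4 and Exph5, each known to bind Rab27 proteins, and Rab11fip2. Other effectors known to bind Rab27 were not called. Among them only Unc13d was positive, at 0.90. Sytl3 differed by -0.07, Sytl5 by -0.20, Sytl1 by -1.24, Mlph by -1.27 and Myrip by -0.87. These uncalled effectors were named after their values were seen. Sytl4 read 1.09, 0.65 and 0.40 in Sham and -0.53, -0.56 and -0.61 in DJB, and fell by 1.28 ± 0.19 (SE; limma, adjusted p = 0.0300). Sytl2 fell by 1.02 ± 0.19 (SE; limma, adjusted p = 0.0423) and Exph5 by 1.88 ± 0.34 (SE; limma, adjusted p = 0.0411). Rab11fip2, an effector of recycling endosomes, fell by 0.74 ± 0.12 (SE; limma, adjusted p = 0.0341). Among the 46 effectors 13 lay wholly above and 12 wholly below, against 19.8% and 22.2% of all genes. None of the 6 calls among regulators and effectors held with a slide block, and none held without Sham-1, Sham-2, DJB-1 or DJB-2. With the slide block 23 of the 131 genes were higher and 20 lower at unadjusted p under 0.05 (17.6% and 15.3%). The shares of all genes were then 12.3% and 19.3%.

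Tbc1d4, the insulin-regulated brake on Rab10, read 3.41, 3.31 and 3.62 in Sham and 2.88, 3.19 and 2.78 in DJB. The groups did not overlap, and the difference was -0.49 ± 0.15 (SE; limma, adjusted p = 0.107). Its relative Tbc1d1 differed by 0.17 (adjusted p = 0.608), with overlapping groups. Gdi2, which carries inactive Rabs in the cytosol, differed by 0.23 (adjusted p = 0.300), also with overlapping groups.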

How the data were processed

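RNA was measured on 6 arrays, 3 Sham and 3 DJB. Per the file headers, the authors quantified the arrays with Agilent Feature Extraction 12.0.3.1, and the deposited processed intensity is background-subtracted and detrended within an array, with no scaling between arrays. Deposited flags for other spot properties (well above background, saturated, outlying) were used as given. A table of log2 values was also deposited by the authors; its columns matched their arrays at Pearson r of at least 0.9993, and how it was scaled between arrays is not given in the sources used here. The submitters' processing notes name limma, with no version. The series' design text, which is about another experiment, was left aside.

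Tables were joined and drawn with Python 3.11.15 (pandas 2.3.3, numpy 2.4.6, matplotlib 3.10.9) and models were fitted in R 4.3.3 by limma 3.58.1. From the log2 of each processed intensity the array's own 75th percentile was subtracted. A probe was tested when well above background and without an outlier flag on at least 3 of 6 arrays, which left 99431 of 150305 probes. DJB was set against Sham with limma (lmFit, then eBayes; two-sided and without covariates), a procedure also tested on simulated data. "At least" folds set the brighter group against the higher of the dim probe's own value and the lowest signal well above background on each array. Symbols came from the files or, by accession, from the RefSeq GRCm38.p6 table, which held 48048 of 48467 RefSeq accessions. Probe sequences came from the array files.

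The members, lists, tests and alternatives were chosen with earlier results of these data known. Genes named with full values were the called ones, the 5 largest differences each way without overlap, Rabs known from fat cells, paralogs, called regulators, and Tbc1d1, Tbc1d4 and Gdi2; other members were named to account for the family, and 1 further gene of that rule is not reported here. Alternatives were normexp correction (offset 50), quantile and median scaling, the authors' values, filters, a trended robust prior, slide and replicate blocks, other probe rules and leaving out each array. The number of arrays limits the precision.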

Additional observations from a re-analysis of the deposited data

Results flagged for a closer look

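Probes of the Rab genes that were not the ones used carried calls that the genes' own probes did not. The 2nd probe of Rab8a, which delivers vesicles to the cell surface, was higher in DJB by 0.618 ± 0.12 (SE; limma, adjusted p = 0.0471), where the probe used gave 0.46 (adjusted p = 0.0691) and the accession probe 0.37 (adjusted p = 0.175). The 5th probe of the Golgi gene Rab43, an accession probe, was higher by 0.548 ± 0.11 (SE; limma, adjusted p = 0.0486), where the probe used gave 0.41 (adjusted p = 0.101). All 5 probes of Rab43 were higher on every DJB array than on every Sham array.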

How the results depend on the processing

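Rab genes called higher and lower, 1 and 4 as reported, numbered 9 and 7 after normexp background correction, 2 and 5 after quantile normalization and in the authors' values, and 5 and 7 with only probes well above background on all arrays. They numbered 0 and 1 with no filter on dim probes, 11 and 6 with a trended robust prior, 6 and 6 with the mean of a gene's probes, and 0 and 1 with the slide as a block. On slide 1 alone they were 0 and 0, where 0.00% of all genes were called either way. The shares of all genes, 1.40% and 6.09% as reported, moved too: they were 4.49% and 12.0% after normexp correction, 5.34% and 10.5% with the trended prior, 4.51% and 8.39% with the mean of probes, 2.88% and 8.80% with probes well above background on all arrays, 0.0469% and 0.951% with no filter, and 0.0656% and 1.21% with the slide block. After quantile normalization 1.26% and 6.16% of all genes were called higher and lower, and in the authors' values 1.25% and 6.18%. After median scaling 4 Rab genes were called, where 1.68% of all genes were called higher and 4.11% lower. Rab21 and Rab38 were then not called (limma, adjusted p = 0.0502 and 0.0585). Leaving out 1 array gave 0 to 1 Rab genes higher and 0 to 4 lower, with 0 of both without Sham-1 or DJB-2. Called regulators and effectors, 6 as reported, numbered 18 after normexp correction, 0 with no filter, 11 with probes well above background on all arrays, 21 with the trended robust prior, 17 with the mean of probes, and 0 with the slide as a block or on slide 1 alone, and 0 to 6 without 1 array. The median Rab difference of 0.14 was 0.25 after median scaling. Fits without 1 array, on slide 1 alone or with a block have fewer arrays or degrees of freedom. The counts also differed with the array left out. Of all genes 6.35% were called lower without Sham-3 and 5.21% without DJB-3, but 0.229% without Sham-1 and 0.355% without DJB-2. The cause was not tested. The slide 1 fit, the accession probes and the scalings of the counts without overlap were chosen after seeing the data.

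The replicate numbers of the labels did not pair the arrays: same-numbered arrays correlated at -0.18, -0.12 and -0.29 in their deviations from the group means. With the replicate block limma called 0 Rab genes higher, 0 lower, and 0 regulators. That fit called 0.00% of all genes higher and 0.00% lower, so these counts are not particular to the family. At unadjusted p under 0.05 it gave 11 Rab genes higher and 13 lower (20% and 23.6%, against 8.08% and 17.8% of all genes).

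Signs turned only for differences that were not called. Rab10 was -0.016 after normexp correction and quantile normalization and -0.019 in the authors' values. Rab18 was -0.11, -0.012 and -0.014 under the same settings and -0.018 with the mean of probes. Rab4a was -0.027, -0.018 and -0.022, and -0.12 without Sham-3, within a range of -0.38 to 0.31 over the fits without 1 array. Rab3b was 0.021 with accession probes included. Tbc1d1 was -0.027 after normexp correction and ranged from -0.039 (without DJB-1) to 0.30 without 1 array.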
